A study of Mus musculus with 12 samples.

Results

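Transcripts of neurons and their axons were followed in the sciatic nerve of mice with and without *Mtmr2*, the gene whose loss causes the demyelinating neuropathy Charcot-Marie-Tooth type 4B1. The set holds 29 genes of neurofilaments, microtubules, axonal transport, vesicle release and sensory neurons. They were taken by symbol from the 43432 genes counted, with no threshold on their values, although earlier results of these data were known when the set was made. All 29 were found in the count table, and 25 of them passed the filter on low counts, as did 17257 genes in all. *Scn10a*, *Calcb*, *Tac1* and *Gal* had too few counts to be tested. Each library came from 1 sciatic nerve of 1 mouse, aged 1 month, of the 129/SvPas background. There were 4 WT control mice, 4 *Mtmr2* KO mice carrying null alleles, and 4 niacin-treated *Mtmr2* KO mice. In the last group niacin was injected into the peritoneum at 120 mg/kg from day 10, and a slow-release form followed by gavage from day 21 until day 30. The labels give no treatment for the *Mtmr2* KO group, which is called untreated here, while the study's text at one place calls it vehicle-treated, and the sources do not settle which holds. Each group held 3 males and 1 female.

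The cell bodies of the neurons that run through the sciatic nerve lie outside it, in the dorsal root ganglia, the spinal cord and the sympathetic ganglia. Messenger RNA made by neurons is therefore, in a piece of nerve, either carried along axons or taken with cell bodies. Most RNA of the nerve is made by Schwann cells, fibroblasts, vessels and fat. Some members, such as *Sncg*, *Map1b* and *Thy1*, are also expressed by cells other than neurons. Axons hold a cytoskeleton of neurofilaments and microtubules, along which kinesin motors move cargo, and sensory axons of the pain pathway release peptides such as calcitonin gene-related peptide. In a whole nerve, fewer cells or axons of a type and less RNA in each cannot be told apart.

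Totals ranged from 20763951 to 33191106 counts per library. *Mtmr2* was at 128 to 161 CPM (counts relative to the TMM-scaled library total) in the WT control libraries and at 66.8 to 84.7 CPM in 7 of the 8 libraries of *Mtmr2* KO mice. The library labelled *Mtmr2* KO replicate 4503 had 143 CPM of *Mtmr2*, inside the WT control range, and it also stood apart in *Glul*, at 2550 CPM against 511 to 806 CPM elsewhere. *Mtmr2* KO replicate 4502 was the highest of the 12 libraries for 24% and the lowest for 16.9% of all genes tested, and the library labelled 4503 the highest for 19.5% and the lowest for 19.6%. *Xist* was at 545 to 687 CPM in 1 library of each group (4498, 4502 and 4506) and at 2.12 to 5.99 CPM in the other 9. Niacin-treated replicates 4506 and 4507 carried skeletal muscle transcripts, with *Acta1* at 475 and 401 CPM against 1.56 to 20.5 CPM in the other libraries. The fits were repeated without 4502 and without 4503.

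In the WT control nerve the members spanned a wide range of levels, compared here as CPM per kilobase of exon. *Sncg*, the gene of gamma-synuclein, which fat cells also express, stood alone at 493 ± 62.5 CPM per kb (SD, n = 4). Next came *Rtn1* (reticulon 1, of the endoplasmic reticulum) at 17.3 ± 1.9 and *Uchl1* (a neuronal ubiquitin hydrolase) at 16.4 ± 2.31 CPM per kb, which did not differ beyond their spread. *Map1b*, a microtubule-binding protein also made by Schwann cells, was at 12.6 ± 1.21 CPM per kb. *Thy1*, a surface glycoprotein of neurons and of some fibroblasts, was at 11 ± 3.52 CPM per kb. *Kif5a*, a kinesin heavy chain, reached 9.3 ± 0.735 and *Stmn3*, a stathmin that binds tubulin, 8.89 ± 1.57 CPM per kb, again within their spread. The intermediate filament genes lay lower. *Prph* (peripherin) was at 5.26 ± 0.621, *Nefh* (the heavy neurofilament chain) at 2.73 ± 0.291, *Nefm* (the medium chain) at 1.52 ± 0.264 and *Nefl* (the light chain) at 1.48 ± 0.324 CPM per kb.

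Genes of sensory neuron identity and pain signalling were at low levels. *Calca*, which encodes calcitonin gene-related peptide, was at 0.502 ± 0.0577 CPM per kb in WT control nerve and rested on 95 counts over the 4 libraries. *Trpv1*, the capsaicin receptor, was at 0.773 ± 0.143 and *P2rx3*, an ATP-gated channel of nociceptors, at 0.307 ± 0.0419 CPM per kb. *Syt1* (the calcium sensor of vesicle release), *Scn9a* (a sodium channel of nociceptors) and the transcription factors *Isl1* and *Pou4f1* were each under 0.1 CPM per kb. The untested members had 12 (*Scn10a*), 10 (*Calcb*), 4 (*Tac1*) and 15 (*Gal*) counts over the 4 WT control libraries. In the *Mtmr2* KO group they had 17, 19, 36 and 18 counts, and in the niacin-treated group 6, 11, 12 and 7. Of the 36 *Tac1* counts (substance P), most came from replicate 4502, where *Tac1* was at 0.897 CPM against 0.128 to 0.385 CPM in the other 3 libraries of the group. Values this low are limited by counting.

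The first comparison asked whether axonal transcripts differ in nerves without *Mtmr2*. No member was called in *Mtmr2* KO versus WT control nerve by edgeR's quasi-likelihood test at an adjusted p under 0.05, where 0.267% of all genes tested were called. At an unadjusted p under 0.05, 11 of 25 members were higher and 0 lower, beside 9.35% and 7.9% of all genes. All 4 *Mtmr2* KO libraries lay above all 4 WT control libraries for 5 members (*Nefm*, *Prph*, *Kif5a*, *Snap25* and *Calca*) and below them for 0, beside 3.85% and 5.46% of all genes. The median log2 difference was 0.58 over the 25 members and 0.03 over all genes, and without 4502 it was 0.27 and 0.01. DESeq2 on the same 8 libraries called 4 members, *Nefm*, *Prph*, *Kif5a* and *Snap25*, all higher, where it called 2.5% of all genes, and edgeR on those 8 libraries called 0 members and 0% of genes.

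**Figure D1:**
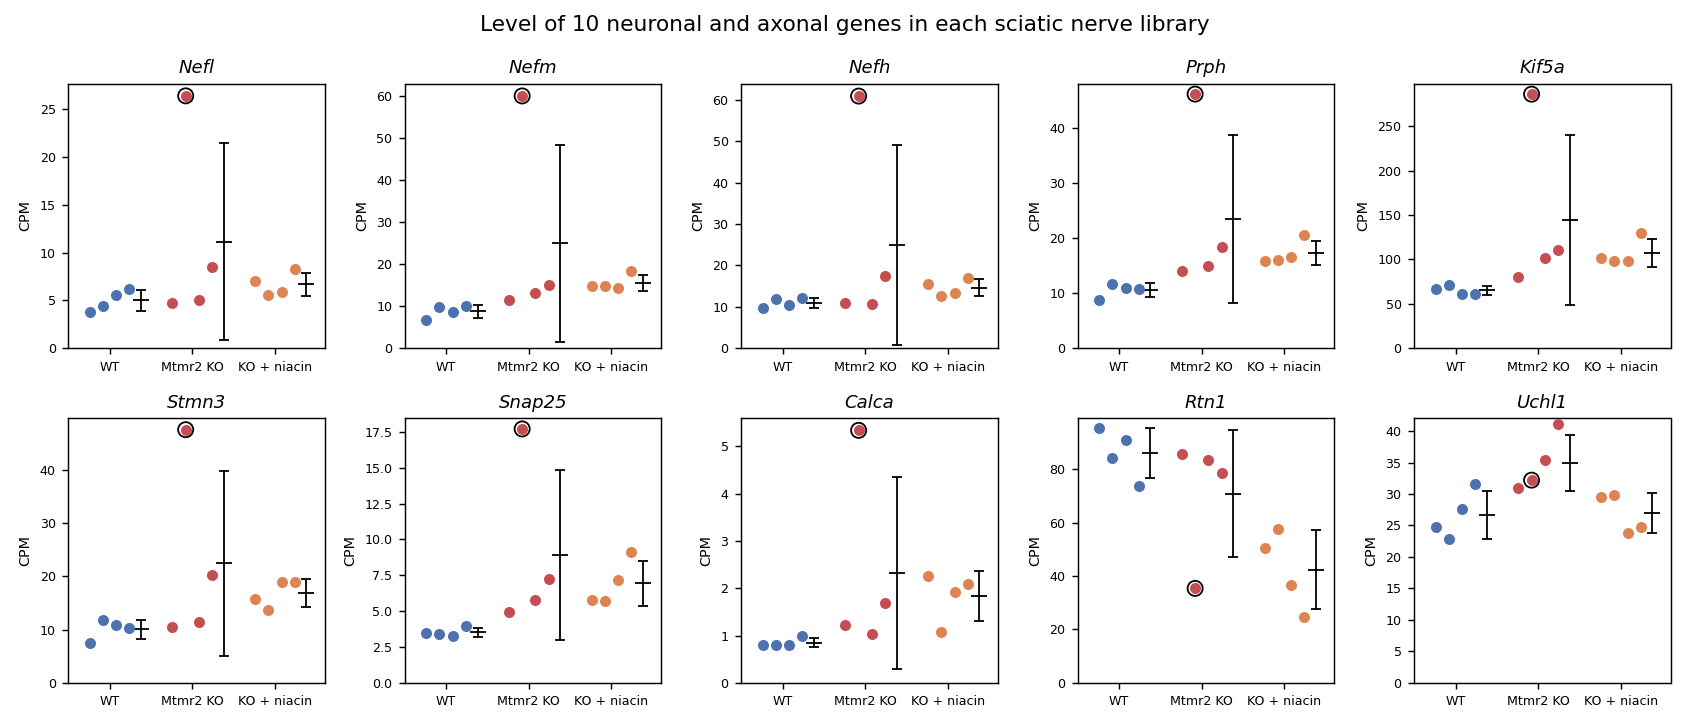
CPM of 10 members in each library, 1 panel per gene with its own linear axis. Points are libraries, the bar and whiskers beside them are the group mean ± SD (n = 4), and the ringed point is *Mtmr2* KO replicate 4502, which stands far above the rest for *Nefl*, *Nefm*, *Nefh*, *Prph*, *Kif5a*, *Stmn3*, *Snap25* and *Calca* and lowest of its group for *Rtn1*.

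All 4 intermediate filament genes had an unadjusted edgeR p under 0.05. The exact permutation p was 0.0286 for *Nefm* and *Prph*, but 0.257 for *Nefl* and 0.229 for *Nefh*. *Nefm* was at 6.69, 9.74, 8.68 and 10.1 CPM in WT control, 11.4, 59.9, 13.1 and 15 CPM in *Mtmr2* KO and 14.8, 14.7, 14.2 and 18.4 CPM in niacin-treated nerve, in order of replicate number. The lowest *Mtmr2* KO library was above the highest WT control library, and 4502 was far above the rest. The log2 difference was 1.49 ± 0.43 (SE; edgeR adjusted p = 0.123; exact permutation p = 0.0286, the smallest that 4 against 4 libraries allow). *Prph* was at 8.76, 11.7, 10.9 and 10.8 CPM in WT control, 14.1, 46.2, 15 and 18.4 CPM in *Mtmr2* KO and 15.9, 16.1, 16.6 and 20.5 CPM in niacin-treated nerve, again without overlap between the first pair of groups (log2 difference 1.15 ± 0.31; edgeR adjusted p = 0.107). *Nefl* was at 3.78, 4.42, 5.55 and 6.22 CPM in WT control and at 4.7, 26.4, 5 and 8.51 CPM in *Mtmr2* KO nerve, so that 2 *Mtmr2* KO libraries lay within the WT control range (log2 difference 1.15 ± 0.45; edgeR adjusted p = 0.214). *Nefh* behaved like *Nefl*, at 9.6, 11.8, 10.3 and 12 CPM in WT control and 10.9, 60.9, 10.7 and 17.5 CPM in *Mtmr2* KO nerve (1.19 ± 0.44; edgeR adjusted p = 0.197). *Nefl* lies inside the annotated span of *Nefm* on the opposite strand, with 1108 bases of exon in common. Whether the counting used strand is not known here, and if it did not, part of their reads cannot be told apart.

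Transport and vesicle genes split. *Kif5a* was at 66.8, 71.4, 61.1 and 60.6 CPM in WT control, 80, 286, 101 and 110 CPM in *Mtmr2* KO and 101, 98.1, 98.1 and 130 CPM in niacin-treated nerve. Every library labelled *Mtmr2* KO, treated or not, was above every WT control library (*Mtmr2* KO versus WT control log2 difference 1.15 ± 0.31; edgeR adjusted p = 0.107). *Snap25*, a SNARE protein of synaptic vesicle fusion, was at 3.45, 3.42, 3.27 and 3.93 CPM in WT control, 4.95, 17.7, 5.8 and 7.22 CPM in *Mtmr2* KO and 5.78, 5.68, 7.17 and 9.09 CPM in niacin-treated nerve, and had the smallest adjusted p of the members (1.33 ± 0.34; edgeR adjusted p = 0.0972). *Stmn3* was at 7.56, 11.7, 10.9 and 10.2 CPM in WT control and 10.5, 47.5, 11.4 and 20.2 CPM in *Mtmr2* KO nerve, with overlap (1.15 ± 0.38; edgeR adjusted p = 0.166). Its exact permutation p was 0.143. *Map1b* was level at 178 to 224 CPM in WT control and 173 to 245 CPM in *Mtmr2* KO nerve (0.05 ± 0.16; edgeR adjusted p = 0.904). *Tubb3*, the neuronal beta-tubulin, was at 2.59 to 3.52 CPM in WT control and 1.38 to 4.38 CPM in *Mtmr2* KO nerve.

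Among sensory genes, *Calca* was at 0.8, 0.791, 0.799 and 0.991 CPM in WT control, 1.22, 5.34, 1.03 and 1.68 CPM in *Mtmr2* KO and 2.25, 1.08, 1.92 and 2.1 CPM in niacin-treated nerve. Its lowest *Mtmr2* KO value, from the library labelled 4503, was just above the highest WT control value (log2 difference 1.43 ± 0.47; edgeR adjusted p = 0.159). *P2rx3* was at 0.762 to 1.01 CPM in WT control and 0.961 to 1.57 CPM in *Mtmr2* KO nerve (0.58 ± 0.25; edgeR adjusted p = 0.26). *Avil*, the sensory neuron actin-binding protein advillin, was at 0.653 to 1.02 CPM in WT control and 0.962 to 2.65 CPM in *Mtmr2* KO nerve (0.79 ± 0.34; edgeR adjusted p = 0.255, and 0.4 on the log2 scale without 4502). For both the groups overlapped (exact permutation p = 0.0571 for *P2rx3* and 0.143 for *Avil*). *P2rx3* shares 51 exon bases with *Ssrp1* and *Avil* 165 with *Tsfm* on the opposite strand.

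Of the enzyme and membrane genes, *Uchl1* was at 24.7, 22.9, 27.6 and 31.6 CPM in WT control, 31, 32.2, 35.4 and 41.1 CPM in *Mtmr2* KO and 29.6, 29.8, 23.8 and 24.8 CPM in niacin-treated nerve. Its *Mtmr2* KO values overlapped WT control in 1 library, and 4502 did not stand apart (log2 difference 0.39 ± 0.14; edgeR adjusted p = 0.184). The exact permutation p of *Uchl1* was 0.0571. *Sncg* was at 380, 393, 408 and 498 CPM in WT control and 411, 854, 370 and 538 CPM in *Mtmr2* KO nerve (0.37 ± 0.22; edgeR adjusted p = 0.409). *Thy1* was at 27 to 48.8 CPM in WT control and 8.59 to 38.8 CPM in *Mtmr2* KO nerve, with the lowest value in the library labelled 4503 (-0.63 ± 0.36; edgeR adjusted p = 0.385). In fits that each omitted 1 library the *Thy1* difference ran from -1.09 (without 4504) to -0.36 (without 4503), with -0.38 without WT control replicate 4500, and without both 4502 and 4503 it was -0.13. *Rtn1* was at 73.7 to 95.4 CPM in WT control and 35.4 to 85.7 CPM in *Mtmr2* KO nerve, with the lowest value in 4502 (-0.28 ± 0.28; edgeR adjusted p = 0.625), and the *Rtn1* difference without 4502 was -0.06. The 10 members not given with a fold change here ran from -0.49 to 1.31 on the log2 scale, the highest being *Isl1*, a transcription factor of sensory and motor neurons that had 21 and 47 counts in the 2 groups.

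The promoters of 3 members that stood high together in 4502 are shown so that their sequences can be compared. They are *Prph* and *Stmn3* of the axonal cytoskeleton and the peptide gene *Calca*. The sequences are from RefSeq on GRCm38.p6, 250 bases before to 50 bases after the start, 5′ to 3′ on the strand of the gene, with TATAAA in *Prph* and TGACG in *Calca* in capitals. *Prph* is at chr15:99054924-99055223 (+), *Stmn3* at chr2:181314451-181314750 (-) and *Calca* at chr7:114636308-114636607 (-).
Prph: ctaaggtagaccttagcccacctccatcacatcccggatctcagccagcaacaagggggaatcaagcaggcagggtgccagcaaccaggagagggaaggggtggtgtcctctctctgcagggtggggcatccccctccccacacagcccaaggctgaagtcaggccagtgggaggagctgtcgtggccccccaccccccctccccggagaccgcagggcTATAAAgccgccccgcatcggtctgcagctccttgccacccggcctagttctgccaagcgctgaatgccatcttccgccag
Stmn3: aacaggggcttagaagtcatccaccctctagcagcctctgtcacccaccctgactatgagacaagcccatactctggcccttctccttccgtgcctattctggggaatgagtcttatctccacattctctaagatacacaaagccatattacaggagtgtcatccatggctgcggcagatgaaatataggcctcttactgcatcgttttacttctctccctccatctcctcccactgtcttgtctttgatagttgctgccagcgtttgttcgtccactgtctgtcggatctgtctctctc
Calca: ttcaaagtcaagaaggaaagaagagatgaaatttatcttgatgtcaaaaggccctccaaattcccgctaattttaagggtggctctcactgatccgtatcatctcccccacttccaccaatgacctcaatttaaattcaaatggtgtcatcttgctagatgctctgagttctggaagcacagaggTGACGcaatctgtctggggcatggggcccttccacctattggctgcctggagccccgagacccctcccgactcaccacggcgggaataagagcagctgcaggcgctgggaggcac
The TATA box TATAAA of *Prph* begins 31 bases before the start, and 4 of the 20 members with a promoter entry (*Eno2*, *Elavl3*, *Map1b* and *Prph*) hold these letters on either strand, beside 13.6% of 32851 promoters. TGACG, the core of the cyclic AMP response element, begins 65 bases before the start of *Calca*. It was found in 7 of 20 members (*Elavl4*, *Tac1*, *Calca*, *Scn10a*, *Isl1*, *Sncg* and *Gal*), beside 20.8% of promoters, while the full site TGACGTCA, which contains it, was in 0 members and 1.79% of promoters. CCAAT was in 9 members and 37.4% of promoters, and GGGCGG in 10 members and 35.7%. The letters TTCAGCACC and GGACAGCG, taken from the ends of the site of the neuronal repressor REST, were in 0 members, beside 0.371% and 1.26% of promoters. *Stmn3* held none of these letters in this window. These are matches of letters on both strands, and binding was not measured.

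Replicate 4502 stood above the rest for most members. It was the highest of the 12 libraries for 17 of the 25 tested members (68%, beside 24% of all genes) and the lowest for 0 (beside 16.9% of all genes), and 13 members were at 2 or more times the median of the other 11 libraries (52%, beside 10.2% of all genes). *Nefh* was at 60.9 CPM there against a median of 12 CPM in the other 11 libraries, *Nefl* at 26.4 against 5.59, *Nefm* at 59.9 against 13.1, *Calca* at 5.34 against 1.08, *Stmn3* at 47.5 against 11.7 and *Isl1* at 0.986 against 0.217 CPM. Not all neuronal genes shared this. Of 39 other axonal and pan-neuronal genes, 18 were above every WT control library in 4502, 14 below and 7 within. The share of all genes was not computed for this count, so it cannot show whether these genes differ from others in 4502. *Map1b* (175 against 196 CPM), *Eno2* (neuronal enolase, 24.8 against 23.9 CPM), *Uchl1* (32.2 against 29.6 CPM) and *Tubb3* (3.99 against 3.24 CPM) stood near the median, and *Rtn1* (35.4 against 78.8 CPM), *Trpv1* (1.17 against 2.41 CPM) and *Thy1* (17 against 35.2 CPM) were below it. The median over the members of the difference in log2 CPM from the WT control mean was 1.26 in 4502, 0.13 in 4501, 0.17 in the library labelled 4503 and 0.52 in 4504. The same median over all genes was between -0.01 and 0.02 in these libraries. The SD of log2 CPM within the *Mtmr2* KO group was 0.73 for the median member, against 0.22 in WT control and 0.27 in niacin-treated nerve, and was 0.33 without 4502. Over all genes the median SD was 0.4, 0.16 and 0.22 in the same groups and 0.27 without 4502.

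**Figure D2:**
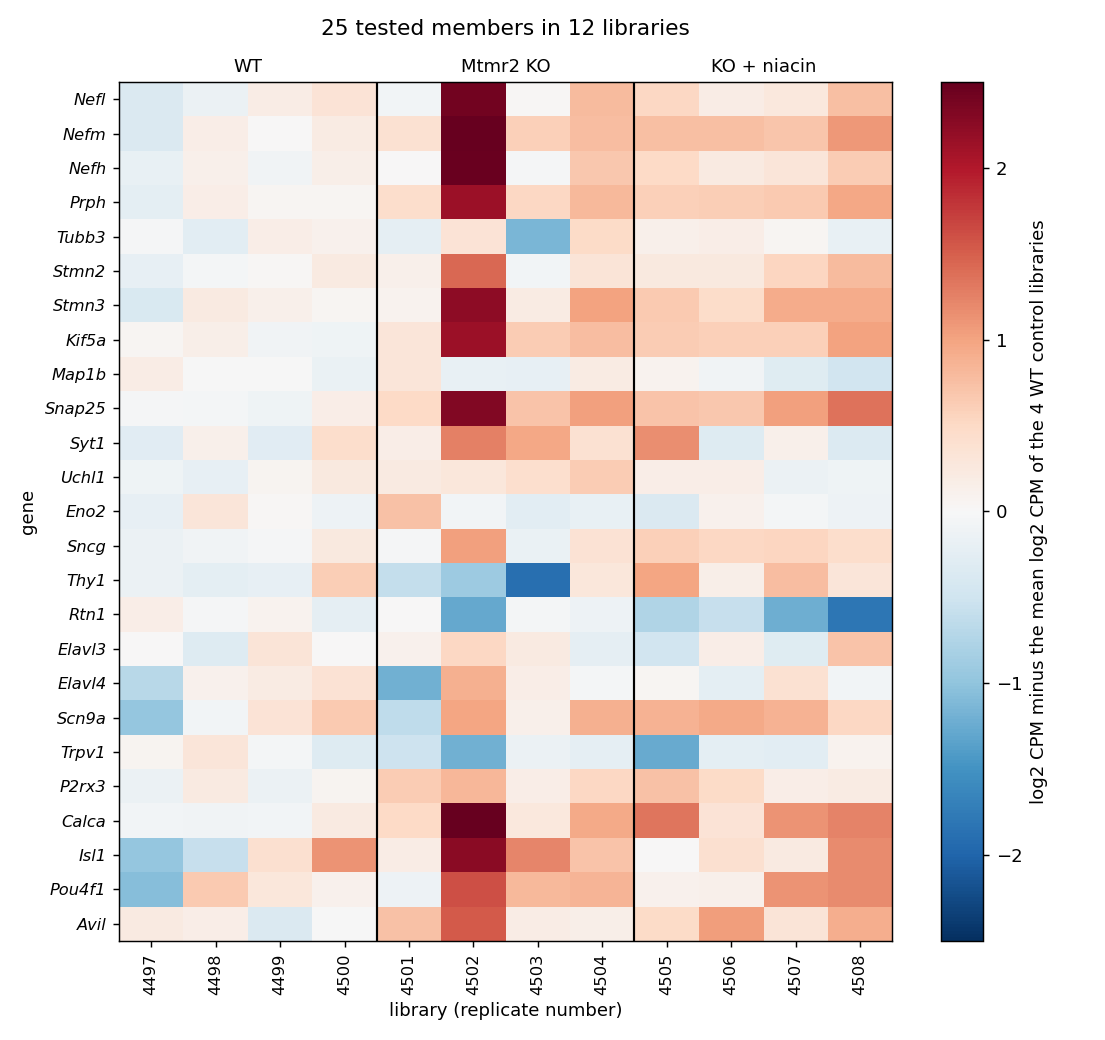
Log2 CPM of the 25 tested members minus their mean over the 4 WT control libraries, by library, with the color scale ending at 2.5 in either direction. Replicate 4502 is the darkest column, with a median of 1.26 over the members. The median is 0.13 in 4501, 0.17 in the library labelled 4503 and 0.52 in 4504. It is 0.23 to 0.64 in the niacin-treated libraries and -0.15 to 0.14 in WT control. Over all genes the medians run from -0.01 to 0.04.

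Without 4502, edgeR called 0 members in *Mtmr2* KO versus WT control nerve, where 0.446% of genes were called, and 5 members were higher and 0 lower at an unadjusted p under 0.05, beside 7.09% and 8.09% of all genes. The log2 differences became 0.58 for *Nefm* (adjusted p = 0.122), 0.58 for *Prph* (adjusted p = 0.0865), 0.58 for *Kif5a* (adjusted p = 0.0834), 0.76 for *Snap25* (adjusted p = 0.0941), 0.61 for *Calca* (adjusted p = 0.354), 0.47 for *Stmn3*, 0.27 for *Nefl*, 0.25 for *Nefh* and 0.07 for *Sncg* in the edgeR fit. All of them stayed above 0. Without both 4502 and the library labelled 4503, they were 0.59 for *Nefm*, 0.63 for *Prph*, 0.56 for *Kif5a*, 0.79 for *Snap25* and 0.77 for *Calca*, with 0 members and 0.0619% of genes called by edgeR. In that fit 7 members were higher and 0 lower at an unadjusted p under 0.05, beside 3.54% and 6.16% of all genes. Leaving out only the library labelled 4503 moved the values the other way, with *Nefm* at 1.7, *Prph* at 1.31, *Kif5a* at 1.28, *Snap25* at 1.49 and *Calca* at 1.68. This was not particular to 4503. Leaving out 4501 or 4504 also raised *Nefm* (1.73 and 1.66), *Prph* (1.32 and 1.24) and *Kif5a* (1.34 and 1.25). Without 4503, *P2rx3* was added to the 5 members that lay above all WT control libraries, which stay above in any part of the group, and 0 members lay below. Over all genes the shares were then 5.53% and 7.53%.

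**Figure D3:**
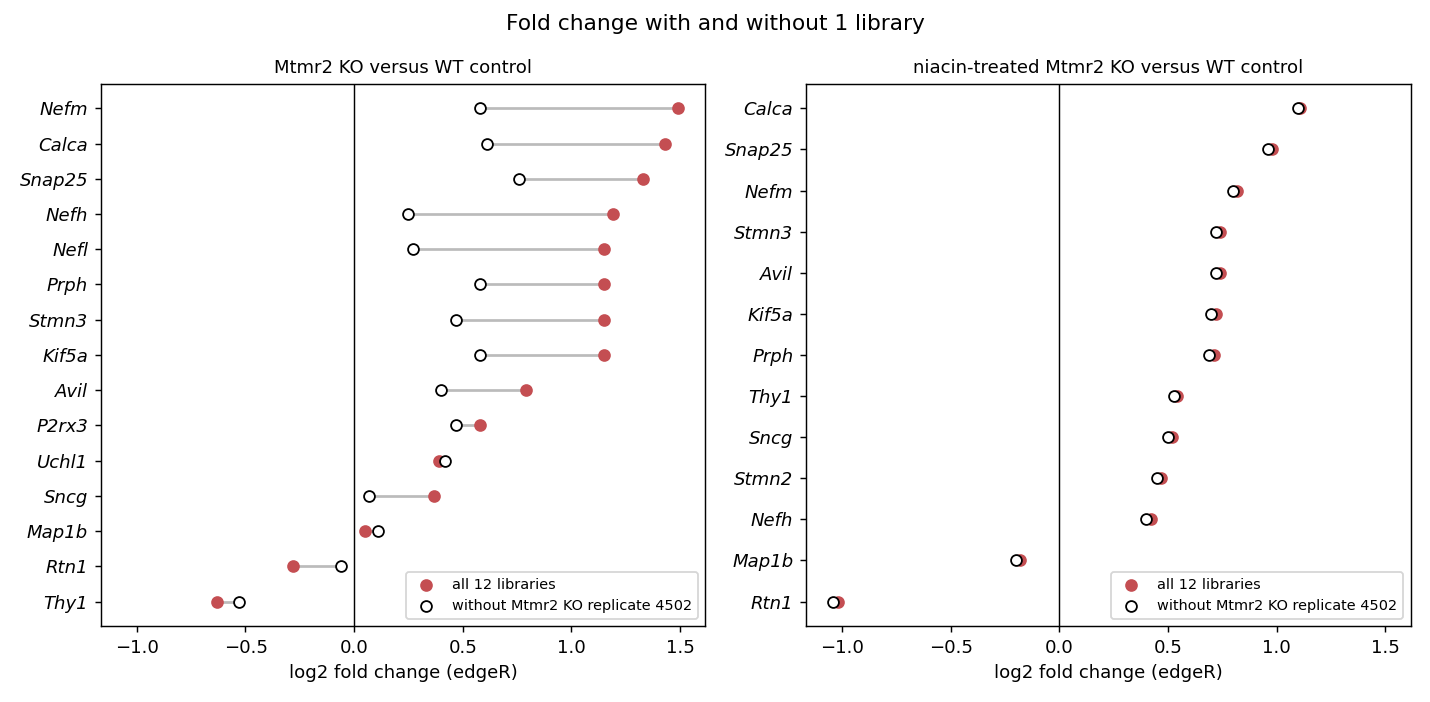
Fitted log2 differences (edgeR) of the members named in the comparisons with WT control, with all 12 libraries (filled) and without *Mtmr2* KO replicate 4502 (open). In *Mtmr2* KO versus WT control the open points lie closer to 0 for *Nefl*, *Nefm*, *Nefh*, *Prph*, *Stmn3*, *Kif5a* and *Snap25* and not for *Map1b* (0.05 and 0.11), with *Nefm* moving from 1.49 to 0.58, and in niacin-treated versus WT control they stay close to the filled points, with *Snap25* at 0.98 and 0.96.

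Niacin-treated *Mtmr2* KO nerve was also compared with WT control nerve, which leaves the uneven *Mtmr2* KO group out of the difference. No WT control library came from a niacin-treated mouse, so genotype and niacin cannot be told apart in this comparison. The 2 comparisons with WT control share its libraries and are not independent. With the spread estimated over all 12 libraries, edgeR called 0 members and 0% of genes. At an unadjusted p under 0.05, 6 members were higher and 1 lower, beside 10.1% and 14.6% of all genes. The groups did not overlap for 10 members that were higher and 1 that was lower, beside 14.9% and 16.6% of all genes. The median log2 difference was 0.43 over the members and 0.02 over all genes.

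The number of members called in this comparison varied widely with the fit. With all 12 libraries, DESeq2 called 1 member, *Rtn1*, where 7.38% of genes were called, and limma-voom with sample quality weights called 12 members, where 42.4% of genes were called. Without 4502, edgeR called 9 members, where 21.6% of genes were called. Of these, 8 were higher (*Nefm*, *Prph*, *Stmn2*, *Stmn3*, *Kif5a*, *Snap25*, *Sncg* and *Calca*) and *Rtn1* was lower. EdgeR on only the 8 libraries compared called 11 members, 10 higher and 1 lower, where it called 33.9% of genes, and DESeq2 on those libraries also called 11 members and 33.9% of genes. The 2 sets of 11 were not the same, with *Avil* called only by edgeR and *Thy1* only by DESeq2. On the 8 libraries alone edgeR had values for 23 members and DESeq2 for 29. These shares of members, and the 9 of 25 without 4502, are to be read against those large shares of all genes.

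*Snap25* had a log2 difference of 0.98 ± 0.34 (SE; edgeR adjusted p = 0.13 with all libraries and 0.00767 without 4502), and its lowest niacin-treated value, 5.68 CPM, was above the highest WT control value, 3.93 CPM. *Kif5a* had 0.72 ± 0.31 (edgeR adjusted p = 0.183 and 0.00717 without 4502), *Nefm* 0.82 ± 0.43 (0.243 and 0.00763) and *Prph* 0.71 ± 0.31 (0.185 and 0.00789). *Calca* had 1.11 ± 0.47 (edgeR adjusted p = 0.177 and 0.017 without 4502), from 95 counts in WT control and 162 counts in niacin-treated nerve. *Stmn3*, at 15.8, 13.6, 19 and 19 CPM in the niacin-treated libraries, had 0.74 ± 0.38 (edgeR adjusted p = 0.237 and 0.0313 without 4502). *Stmn2*, a stathmin of growing axons, was at 21.2, 23.6, 24.6 and 28.4 CPM in WT control and 28.8, 28.8, 35.4 and 42.3 CPM in niacin-treated nerve (0.47 ± 0.27; edgeR adjusted p = 0.286 and 0.039 without 4502).

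*Nefh* was at 15.4, 12.7, 13.4 and 17 CPM in niacin-treated nerve, above all WT control libraries (0.42 ± 0.44; edgeR adjusted p = 0.559 and 0.108 without 4502). *Avil* was at 1.1 to 1.86 CPM, also above WT control (0.74 ± 0.34; edgeR adjusted p = 0.201 and 0.0688 without 4502). *Nefl* was at 7, 5.59, 5.89 and 8.28 CPM and overlapped WT control. *Sncg* was at 629, 599, 606 and 568 CPM, above the WT control maximum of 498 CPM (0.52 ± 0.22; edgeR adjusted p = 0.184 and 0.0256 without 4502). *Thy1* (0.54 ± 0.36; edgeR adjusted p = 0.339) and *Map1b* (-0.18 ± 0.16; edgeR adjusted p = 0.477) overlapped between the groups. With 1 library left out, the *Map1b* difference ran from -0.29 to -0.1. The 12 other members ran from -0.37 to 0.74 on the log2 scale.

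*Rtn1* went the other way. It was at 95.4, 84.1, 91.1 and 73.7 CPM in WT control and 50.5, 57.7, 36.8 and 24.5 CPM in niacin-treated nerve, without overlap (log2 difference -1.02 ± 0.28; edgeR adjusted p = 0.0938 with all libraries and 0.00851 without 4502). The lowest *Rtn1* value outside the niacin-treated group was that of 4502, at 35.4 CPM.

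**Figure D4:**
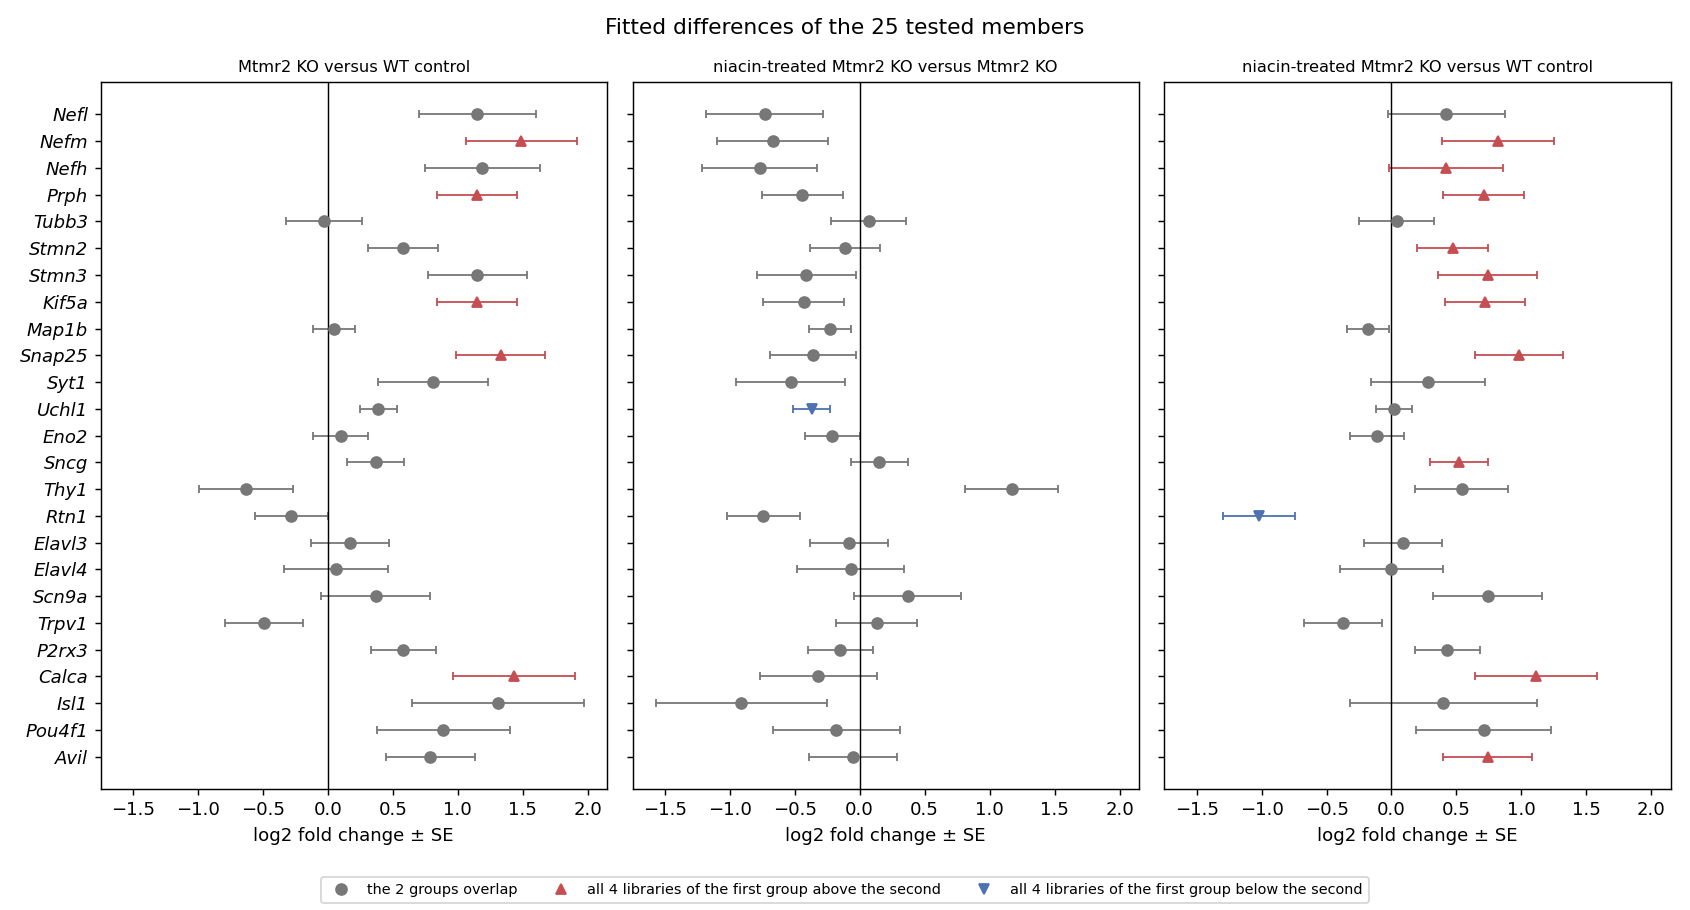
Fitted log2 difference ± SE (edgeR, all 12 libraries) of the 25 tested members in each comparison, with triangles where the 4 libraries of 1 group lie entirely above or below the other. Triangles pointing up mark 5 members in *Mtmr2* KO versus WT control (beside 3.85% of all genes) and 10 in niacin-treated *Mtmr2* KO versus WT control (beside 14.9%). *Uchl1* is the only separate member in niacin-treated versus untreated *Mtmr2* KO.

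Over both groups labelled *Mtmr2* KO, all 8 libraries lay above the 4 WT control libraries for 5 members, *Nefm*, *Prph*, *Kif5a*, *Snap25* and *Calca*, and below them for 0. The same held for 1.55% and 2.4% of all genes. Without the library labelled 4503, the 7 others lay above for the same 5 members and below for 0, beside 2.42% and 3.4% of all genes. These counts only describe the libraries, since both groups are set against the same WT control mice.

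The last comparison asked whether niacin altered these transcripts in *Mtmr2* KO mice. EdgeR called 0 members in niacin-treated versus untreated *Mtmr2* KO nerve, where 1.43% of genes were called. At an unadjusted p under 0.05, 1 member was higher (*Thy1*) and 2 lower (*Uchl1* and *Rtn1*), beside 8.01% and 12.1% of all genes. The groups did not overlap for 1 member that was lower, *Uchl1*, and for 0 that were higher, beside 3.4% and 3.6% of all genes. DESeq2 on the 8 libraries called 0 members and 2.56% of genes, and edgeR on the same libraries 0 members and 0% of genes. The median log2 difference was -0.23 over the members and -0.04 over all genes, and 20 of 25 members had the lower mean in niacin-treated nerve. This turned without 4502, where the median was 0.15 over the members and -0.02 over all genes, and 8 of 25 members had the lower mean.

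*Thy1* was at 21.2, 17, 8.59 and 38.8 CPM in *Mtmr2* KO and 63.4, 35.2, 54.5 and 39.4 CPM in niacin-treated nerve, with overlap between 4504 and 4506 (log2 difference 1.17 ± 0.36; edgeR adjusted p = 0.107). The lowest value came from the library labelled 4503, and without it the difference was 0.91 (edgeR adjusted p = 0.217), and without both it and 4502 it was 0.67 (edgeR adjusted p = 0.159). Without 4504 it was 1.63 and passed the test (edgeR adjusted p = 0.024). *Uchl1* was lower by 0.37 on the log2 scale (-0.37 ± 0.14; edgeR adjusted p = 0.161), with 31 CPM as the lowest untreated and 29.8 CPM as the highest treated value. *Rtn1* had -0.74 ± 0.28 (edgeR adjusted p = 0.165). Without 4502, where 23.6% of genes were called, edgeR called 2 members, *Uchl1* (-0.43, adjusted p = 0.0475) and *Rtn1* (-0.98, adjusted p = 0.0115). Without both 4502 and the library labelled 4503, *Rtn1* kept the call (adjusted p = 0.0247) and *Uchl1* did not (edgeR adjusted p = 0.0821).

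Of the 11 neurofilament, transport and vesicle genes, *Tubb3* apart (3.23 against 3.1 CPM), 10 had lower means in niacin-treated than in untreated *Mtmr2* KO nerve. For 8 of these 10, which were *Nefl*, *Nefm*, *Nefh*, *Prph*, *Stmn2*, *Stmn3*, *Kif5a* and *Snap25*, the niacin-treated mean lay above that of the 3 *Mtmr2* KO libraries other than 4502, and for *Map1b* and *Syt1* below it. *Kif5a* had a log2 difference of -0.43 ± 0.31 with all libraries (edgeR adjusted p = 0.454) and 0.12 without 4502 (edgeR adjusted p = 0.561). The 3 other *Mtmr2* KO libraries held 80, 101 and 110 CPM of *Kif5a*, and the niacin-treated libraries 98.1 to 130 CPM. *Nefm* was at 11.4, 13.1 and 15 CPM in those 3 libraries and at 14.2 to 18.4 CPM with niacin. *Sncg* (0.15 ± 0.22; edgeR adjusted p = 0.747) and *Map1b* (-0.23 ± 0.16; edgeR adjusted p = 0.442) overlapped between the groups. The *Sncg* difference was 0.43 without 4502 (edgeR adjusted p = 0.0552) and 0 without 4503 (edgeR adjusted p = 0.999). That of *Map1b* ran from -0.33 to -0.13 with 1 library left out, and was -0.45 without both 4502 and 4503 (edgeR adjusted p = 0.0632). The 19 members not given with a fold change ran from -0.91 to 0.37.

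Other neuronal genes were counted from lists of 39 axonal and pan-neuronal, 25 sensory, 10 motor, 13 sympathetic, 12 nodal and axolemmal and 10 axon injury response genes. Of the 37 axonal and pan-neuronal genes tested, edgeR called 0 in *Mtmr2* KO versus WT control nerve. At an unadjusted p under 0.05, 10 were higher (of all genes, 9.35%) and 5 lower (of all genes, 7.9%), and their median log2 difference was 0.07, against 0.03 over all genes. The most abundant were *Tuba1a*, an alpha-tubulin of many cell types (-0.09 ± 0.27; edgeR adjusted p = 0.883), and *Kif1a*, a kinesin of vesicle transport (0.07 ± 0.21; edgeR adjusted p = 0.885). In niacin-treated versus *Mtmr2* KO nerve 1 of the 37 was called, beside 1.43% of all genes, and 7 were higher and 4 lower at an unadjusted p under 0.05, beside 8.01% and 12.1%. The gene called was *Mapt*, of the microtubule protein tau. *Mapt* was at 15.8, 18.1, 21.3 and 14.5 CPM in *Mtmr2* KO and 8.72, 13.2, 10.1 and 7.46 CPM in niacin-treated nerve, without overlap (log2 difference -0.82 ± 0.18; edgeR adjusted p = 0.0457). The call was kept with DESeq2 over all libraries (adjusted p = 0.00279) and on the 2 groups (adjusted p = 0.0339), with limma-voom (adjusted p = 0.0257), with the correction for GC content and length (adjusted p = 0.0346) and without 4502 and 4503 (adjusted p = 0.0415). It was lost with 10 of the 12 libraries left out one at a time (edgeR adjusted p up to 0.157, without 4507, with log2 differences of -1.01 to -0.71), with edgeR on only the 8 libraries (adjusted p = 0.191) and with *Xist* as a covariate (adjusted p = 0.0515).

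Many genes of the sensory, motor and sympathetic lists had too few counts to be tested. Of the sensory list 10 genes were tested, with *Ntrk2*, a neurotrophin receptor gene, the most abundant. In *Mtmr2* KO versus WT control nerve edgeR called 0 of the 10, with a median log2 difference of 0.01. At an unadjusted p under 0.05, 3 were higher and 3 lower (of all genes, 9.35% and 7.9%). The higher were *Nmb* (1.33 ± 0.37; edgeR adjusted p = 0.109), *Runx3* (1.4 ± 0.55; 0.211) and *Tmem233* (1.76 ± 0.72; 0.235), and the lower *Ntrk2*, *Ntrk3* and *Piezo2*. In *Mtmr2* KO nerve *Nmb* was at 2.51, 5.69, 5.26 and 2.36 CPM (WT control 0.888 to 2.37 CPM). *Runx3* was at 0.453, 1.79, 4.2 and 0.914 CPM (WT control 0.436 to 1.16 CPM). *Tmem233* was at 0.348, 2.33, 0.641 and 0.77 CPM (WT control 0.182 to 0.444 CPM), and at 4.38 and 4.02 CPM in niacin-treated 4506 and 4507. *Ntrk2* was at 110 to 130 CPM in WT control, 67.5 to 90.4 CPM in *Mtmr2* KO and 63.6 to 92.8 CPM in niacin-treated nerve, below WT control in all 8 libraries (*Mtmr2* KO versus WT control log2 difference -0.66 ± 0.14; edgeR adjusted p = 0.0595). *Pvalb*, of large sensory neurons and of muscle, was at 371 and 343 CPM in the niacin-treated libraries that carried muscle transcripts and at 2.72 to 13.7 CPM in the other 10. Of the motor list 4 genes were tested. The most abundant were *Prima1*, which anchors acetylcholinesterase in the membrane, at 7.77 to 15.2 CPM in the 12 libraries, and *Ache*, acetylcholinesterase itself, at 0.404 to 2.19 CPM. Of the sympathetic list 4 genes were tested, with *Slc6a2*, the noradrenaline transporter, at 2.88 to 8.68 CPM and *Slc18a2*, a vesicular monoamine transporter, at 2.69 to 5.78 CPM the most abundant. The transmitter enzymes that define these neurons were too low to test, with *Chat* at 0.0364 to 0.288 CPM and *Th* at 0 to 0.274 CPM. Of the axon injury list 4 genes were tested, with *Csf1* (-0.42 ± 0.17; edgeR adjusted p = 0.236) and *Atf3* (0.34 ± 0.31; edgeR adjusted p = 0.595) the most abundant in *Mtmr2* KO versus WT control nerve. Of the nodal and axolemmal genes 11 were tested and 0 called by edgeR in any comparison. At an unadjusted p under 0.05, 1 was higher and 0 lower in *Mtmr2* KO versus WT control (of all genes, 9.35% and 7.9%), 0 higher and 4 lower in niacin-treated versus untreated *Mtmr2* KO (8.01% and 12.1%) and 2 higher and 3 lower in niacin-treated *Mtmr2* KO versus WT control (10.1% and 14.6%). The most abundant were *Nfasc*, the cell adhesion gene neurofascin, at 225 to 550 CPM in the 12 libraries, and *Kcna1*, an axonal and Schwann cell potassium channel, which reached 1105 CPM in the library labelled 4503 against 203 to 446 CPM elsewhere. Of the 70 genes of these lists that were tested, 6 stood above WT control in all 8 libraries labelled *Mtmr2* KO. Of the same 70 genes, 1, *Ntrk2*, stood below. Over all genes the shares were 1.55% and 2.4%. The 6 were singled out after their values were seen. They were *Kif5c*, *Cplx1*, *Gng3*, *Chgb*, *Fxyd7* and *Sptbn4*, with *Kif5c* at 129 to 136 CPM in WT control, 159, 756, 200 and 204 CPM in *Mtmr2* KO and 193 to 306 CPM in niacin-treated nerve.

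**Figure D5:**
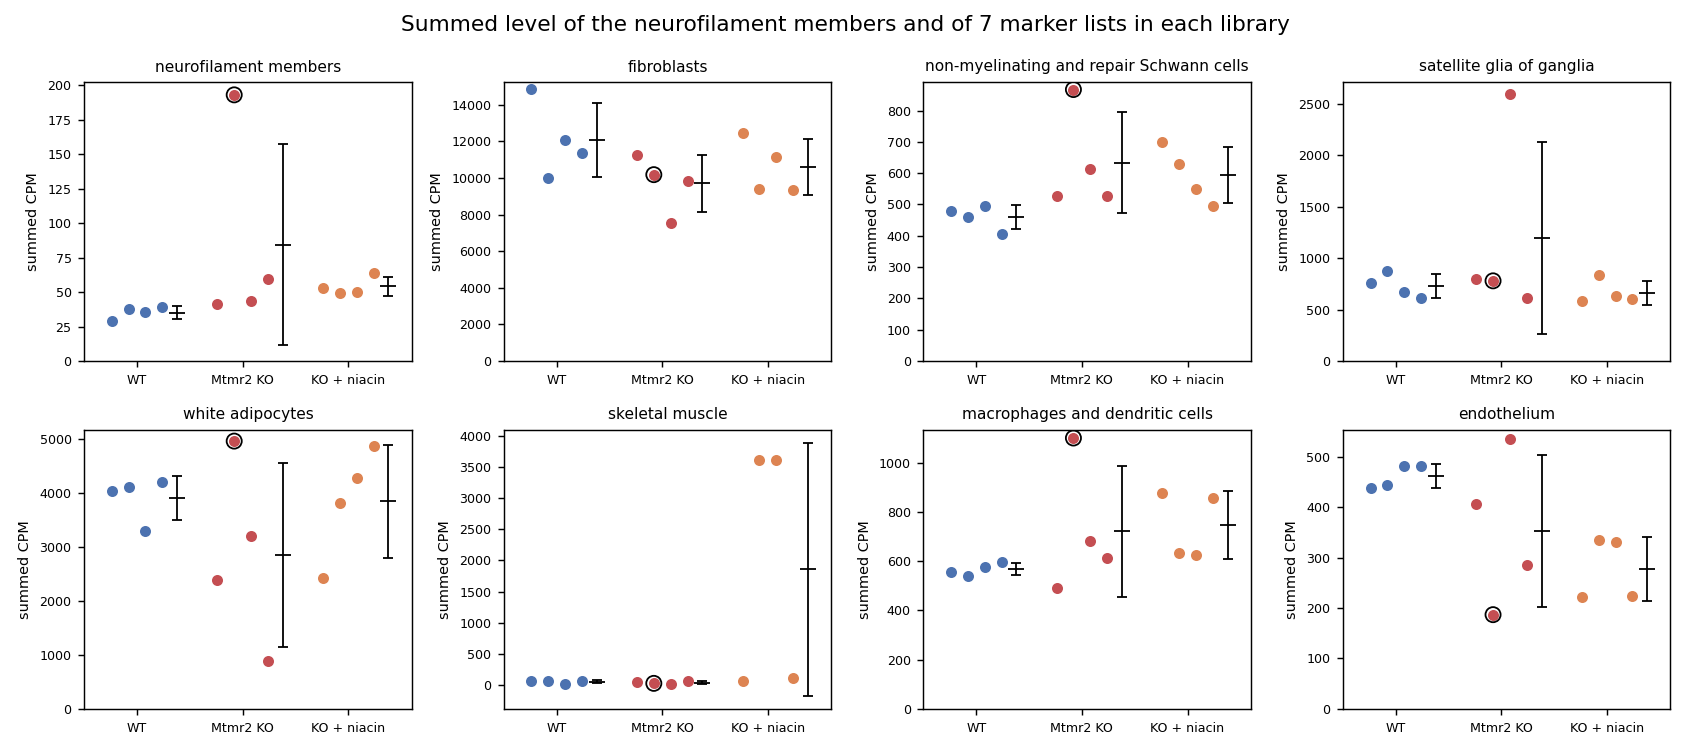
Summed CPM of the 4 neurofilament members and of 7 marker lists in each library, with the group mean ± SD (n = 4) beside the points and replicate 4502 ringed. Replicate 4502 is highest for the neurofilament sum (193 CPM), for the non-myelinating Schwann cell sum (867 CPM, of which *Scn7a* is 748), the white adipocyte sum (4960 CPM, of which *Cfd* is 2396 and *Fabp4* 1230) and the macrophage sum (1100 CPM, of which *Lyz2* is 560), while other genes of these lists are below WT control there, and it is lowest for endothelium (187 CPM). Muscle markers are high in 2 niacin-treated libraries.

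Markers of other cells moved between the same libraries. In 4502 the summed level of 8 genes of non-myelinating and repair Schwann cells was 867 CPM, against 407 to 495 CPM in WT control, 527 to 614 CPM in the other *Mtmr2* KO and 495 to 701 CPM in niacin-treated nerve. *Scn7a* made up 748 CPM of it, with 265 to 325 CPM in WT control, and 3 of the 8 genes were below every WT control library in 4502 (*Ngfr* at 34.5 CPM, *Ncam1* at 34.4 and *Jun* at 24.5). The sum of 9 macrophage and dendritic cell genes was 1100 CPM there, against 540 to 597 CPM in WT control, with 6 of its genes above and 3 below every WT control library and *Lyz2* at 560 CPM, and that of 5 endothelial genes 187 CPM, against 438 to 483 CPM. The sum of 10 white adipocyte genes ranged from 3300 to 4194 CPM in WT control, 880 to 4960 CPM in *Mtmr2* KO and 2417 to 4874 CPM in niacin-treated nerve, and was highest in 4502, as was *Sncg*. In 4502 the genes of this list moved in both directions, with 5 above every WT control library (among them *Cfd* at 2396 and *Fabp4* at 1230 CPM) and 5 below. The share of all genes was not computed for such counts in 4502. *Plin1* was at 49 CPM there against 157 to 242 in WT control, *Lep* at 12.7 against 39.6 to 77.7, *Lipe* at 41.7 against 143 to 192 and *Pck1* at 128 against 288 to 405 CPM. EdgeR called 2 of these 10 genes lower in *Mtmr2* KO versus WT control (*Plin1* and *Lep*), beside 0.267% of all genes called. It called 1 higher with niacin than without (*Lep*), beside 1.43% of all genes. Of 10 muscle genes, 7 were called higher with niacin than without, with sums of 3615 and 3612 CPM in 4506 and 4507 and 14.6 to 115 CPM elsewhere. Of 5 mast cell genes, 4 were called higher with niacin than without (*Cma1*, *Cpa3*, *Mcpt4* and *Tpsb2*, with log2 differences of 1.4 to 1.74), beside 1.43% of all genes, while the fifth, *Kit*, had a log2 difference of -1.55 ± 0.41 (edgeR adjusted p = 0.0774). The part of these cells in the neuronal values was not tested. For satellite glia, which wrap sensory cell bodies in the ganglia, the sum of 5 genes was 779 CPM in 4502 and 611 to 876 CPM in WT control. *Glul* made up 697 CPM of it in 4502 and 517 to 806 CPM in WT control. Of the others, *Fabp7* was at 1.52 CPM against 0.827 to 1.81 CPM and *Kcnj10* at 4.8 CPM against 6.94 to 15.8 CPM. The high sum of this list in the library labelled 4503, 2589 CPM, came from *Glul*.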

How the data were processed

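RNA of 12 sciatic nerves was sequenced from polyA-selected libraries. The authors mapped reads with STAR to GRCm38 and deposited raw read counts per Ensembl gene as whole numbers. For the counting program, the annotation release and strand, nothing is given in the sources used here. Gene symbols were read from 1 of the deposited comparison tables, whose fold changes and p-values were not used. Coordinates, exon lengths and overlaps come from GENCODE M21 (GRCm38), promoters from RefSeq (GRCm38.p6), where 20 of 29 members had an entry.

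The analysis used edgeR 4.0.16 in R 4.3.3, with filterByExpr by group, TMM scaling and 1 quasi-likelihood model over the 3 groups without covariates. Tests were two-sided, with Benjamini-Hochberg adjustment over 17257 genes and calls at an adjusted p under 0.05. The SE was computed as the absolute log2 difference over the square root of F. CPM were computed here from the deposited counts and TMM scaling, with a prior count of 2 for log2 CPM. Exact permutation tests used mean log2 CPM and all 70 ways to draw 4 of 8 libraries. No pair of libraries of 1 group was alike within sampling noise (chi-square per degree of freedom 11.6 or more). The members and gene lists were chosen with earlier results of these data known. Differences are given for members called, with an unadjusted p under 0.05, with groups that do not overlap, or among the 5 most abundant. Of the other lists, genes called or the 2 most abundant were to be named, and any further ones were picked with their values in view.

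Alternatives were DESeq2 1.42.0 on all libraries or on the 2 groups, limma-voom (limma 3.58.1) with sample quality weights, DESeq2 size factors in edgeR, edgeR on the 2 groups, 2 other filters, *Xist* as a covariate and each library left out. A correction for GC content and transcript length (natural splines, 5 degrees of freedom, 99.3% of genes) and leaving out 4502 and 4503 together were chosen after seeing the data.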

Additional observations from a re-analysis of the deposited data

Results flagged for a closer look

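In each group of 4 libraries, the highest or lowest library of each tested member was compared with its nearest neighbour by Dixon's test, over 75 groups. A single such group is flagged by chance about 1 time in 20, and 12 values were past the 95% limit. The members were measured in the same libraries, so the 75 groups are not independent. The rate over all genes was not computed, and no excess over chance is read from this count. Of the 12 values, 6 were from *Mtmr2* KO replicate 4502. Its *Nefm* was at 59.9 CPM (next 15 CPM), *Nefh* at 60.9 CPM (next 17.5), *Prph* at 46.2 CPM (next 18.4), *Kif5a* at 286 CPM (next 110) and *Calca* at 5.34 CPM (next 1.68), all high, while its *Rtn1* was low at 35.4 CPM (next 78.8). Niacin-treated replicate 4508 stood out for 3 of the same genes, with *Nefm* at 18.4 CPM (next 14.8), *Prph* at 20.5 CPM (next 16.6) and *Kif5a* at 130 CPM (next 101). *Eno2* was at 43.4 CPM in *Mtmr2* KO replicate 4501 (next 24.8). WT control replicate 4500 was high for *Thy1* at 48.8 CPM (next 28.7) and for *Calca* at 0.991 CPM (next 0.8).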

How the results depend on the processing

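With all libraries edgeR called 0 members in each comparison. In *Mtmr2* KO versus WT control, DESeq2 over all 12 libraries, DESeq2 on the 2 groups and edgeR with no filter except 1 count in total each called 4, and the correction for GC content and length called 1 (*Snap25*, adjusted p = 0.048), where 3.47%, 2.5%, 1.01% and 1.21% of all genes were called. In niacin-treated versus untreated *Mtmr2* KO, DESeq2 over all 12 libraries, limma-voom with quality weights, edgeR with no filter except 1 count and edgeR without both 4502 and 4503 each called 1 (of all genes, 5.88%, 11.6%, 1.69% and 12.5%). In niacin-treated versus WT control, DESeq2 over all 12 libraries and edgeR with no filter each called 1 (of all genes, 7.38% and 0.918%), DESeq2 and edgeR on the 2 groups 11 each (33.9% in both), limma-voom 12 (42.4%), and edgeR without 4502 and 4503 called 9 (29.6%). The other alternatives, leaving out single libraries apart, called 0. With each library left out in turn, counts ran from 0 to 4 (4 without 4501, beside 2.6% of all genes), from 0 to 2 (2 without 4502, beside 23.6%, and 1 without 4504, beside 2.87%) and from 0 to 9 (9 without 4502, beside 21.6%). The cause was not tested.

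Of 330, 132 and 286 values of named members under the alternatives, 326, 130 and 286 kept their direction, but sizes moved. In *Mtmr2* KO versus WT control, limma-voom moved 12 of 15 named differences by over 1.5 times, 11 of them to smaller ones (*Nefh* 0.46, *Nefl* 0.44, *Nefm* 0.76, *Kif5a* 0.68, *Prph* 0.71, *Snap25* 0.88, *Stmn3* 0.61, *Calca* 0.83, *Sncg* 0.24, *Rtn1* -0.18 and *Thy1* -0.32) and *Map1b* to 0.15, and leaving out 4502 likewise moved 12. In niacin-treated versus untreated *Mtmr2* KO, limma-voom gave -0.02 for *Kif5a*, -0.4 for *Map1b* and 0.32 for *Sncg*, and *Xist* as a covariate gave -0.27 for *Kif5a*. The correction for GC content and length gave, in niacin-treated versus WT control, 0.82 for *Nefh*, 0.26 for *Stmn2* and -0.09 for *Map1b*. It gave 0.24 for *Sncg*, -0.18 for *Rtn1* and 0.09 for *Map1b* in *Mtmr2* KO versus WT control, and 0.23 for *Sncg* in niacin-treated versus untreated *Mtmr2* KO. *Map1b* turned in *Mtmr2* KO versus WT control with no filter (-0.01) and ranged from -0.05 to 0.12 with a library left out. *Kif5a* turned in niacin-treated versus untreated *Mtmr2* KO without 4502 and 4503 (0.16), and ranged from -0.63 to 0.12 with a library left out. No paired analysis was possible because the replicate numbers 4497 to 4508 are each used once. Depth limits the peptide genes and most channel genes, which rest on few counts. Intervals for these were not computed.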
